A study of Mus musculus with 20 samples.

Results

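The unfolded protein response and the export machinery of the endoplasmic reticulum (ER) are described here through 40 genes, followed across whole lungs of mice exposed to house dust mite (HDM) extract or saline. The members were chosen by gene symbol, with earlier results of these data known. They are ER chaperones, disulfide isomerases, degradation factors, stress sensors, translocation subunits and transport factors. All 40 were among the 24054 genes of the table. All 40 also had enough counts to be tested, as did 16193 genes in total. The 20 RNA-seq libraries came from lungs of female C57Bl6 mice and form 4 groups of 5, whose members the labels number as biological replicates. KO_HDM libraries came from mice labelled ALOX15 knockout that received intranasal HDM extract every day for 14 days, and KO_saline libraries from mice with the same label that received saline. WT_HDM and WT_saline libraries came from wild-type mice with the same treatments. The labels do not name the knockout allele or say whether a library is 1 mouse or several. The p-values therefore set differences between groups against the spread between libraries, estimated over all 20 of them.

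Proteins bound for secretion enter the ER through a translocation channel, fold there with the help of chaperones, and leave in vesicles with a COPII coat. When unfolded proteins accumulate, the sensors IRE1, ATF6 and PERK switch on transcription factors that raise the genes for chaperones and for ER-associated degradation, the route by which misfolded proteins are passed back to the cytosol and destroyed. Cells that secrete a great deal of protein, such as antibody-producing plasma cells and mucus-producing goblet cells of the airway, depend on this system.

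Expected counts totalled 17840138 to 21082770 in KO_HDM, 21120878 to 23305673 in KO_saline, 12573113 to 20662632 in WT_HDM and 15601878 to 21715842 in WT_saline. Levels are given in CPM, read counts relative to the TMM-scaled total of their library, and 1 count was worth at most 0.0777 CPM in any library; the smallest count of a member was 20, for Derl3 in WT_saline 2. Alox15, which encodes the lipoxygenase named on the labels, lay at 35.0 to 45.5 CPM in KO_HDM, 38.4 to 44.7 in KO_saline, 7.92 to 29.8 in WT_HDM and 0.825 to 11.1 in WT_saline. Its counts thus went against the label, and the groups are called labelled knockout throughout. The difference between labels passed edgeR's quasi-likelihood test under saline (log2 fold change 3.15, adjusted p = 0.000583) and not under HDM (1.15, adjusted p = 0.107). The lung markers Sftpc and Scgb1a1 were abundant in every library, at no less than 3973 and 3728 CPM. Traces of other tissues were also found: 13 liver markers summed to 44.7 to 146 CPM in KO_HDM and at most 7.30 CPM in the other groups, 5 libraries (KO_HDM 5, WT_HDM 2, WT_HDM 4, WT_saline 2 and WT_saline 4) held the adipose gene Adipoq at 50 CPM or more, and WT_HDM 2 held the skeletal muscle gene Ckm at 414.5 CPM. Their part in the results was not tested beyond the fits without the 5 adipose-rich libraries given below.

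Promoter sequences from RefSeq (mouse assembly GRCm38.p6, 250 bases before to 50 after the transcription start site) were found for 33 of the 40 members. They are shown because the response is known to act through a few short DNA elements. The ER stress response element ERSE, bound by ATF6 and XBP1 together with NF-Y, was searched as CCAAT and CCACG with 9 bases of any kind between them, the related ERSE-II as ATTGG and CCACG with 1 base between them, the element UPRE of XBP1 and ATF6 as TGACGTGG and the element CARE of ATF4 as TGATGCAA, each on both strands. ERSE was present in 9 of the 33 promoters (27.3%), against 0.137% of all 27025 genes with a promoter. ERSE-II was present in 2 members (6.06%, against 0.0444%), UPRE in 3 (9.09%, against 0.714%) and CARE in 1 (3.03%, against 1.03%). Because the members were picked as genes of this response, an excess of its known elements among them is no independent result. In the matches below, the fixed letters are capitals and the strand printed is that of the gene, so that a match on the other strand reads as its reverse complement. Matches did not overlap one another.
Hsp90b1, ERSE, first base at -212: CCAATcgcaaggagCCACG
Calr, ERSE, first base at -162: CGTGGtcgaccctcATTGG
Derl3, ERSE, first base at -156: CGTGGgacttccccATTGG
Canx, ERSE, first base at -145: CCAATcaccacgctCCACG
Creld2, ERSE, first base at -126: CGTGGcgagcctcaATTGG
Hsp90b1, ERSE, first base at -107: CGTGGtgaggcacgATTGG
Dnajc3, ERSE, first base at -105: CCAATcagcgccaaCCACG
Pdia6, ERSE, first base at -98: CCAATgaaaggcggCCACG
Hspa5, ERSE, first base at -65: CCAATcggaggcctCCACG
Syvn1, ERSE, first base at -44: CCAATcggcggtagCCACG
Herpud1, ERSE-II, first base at -52: ATTGGgCCACG
Dnajb11, ERSE-II, first base at +7: ATTGGcCCACG
Ube2j1, UPRE, first base at -68: CCACGTCA
Kdelr3, UPRE, first base at -30: CCACGTCA
Sec24d, UPRE, first base at -26: TGACGTGG
Herpud1, CARE, first base at -112: TTGCATCA

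**Figure D1:**
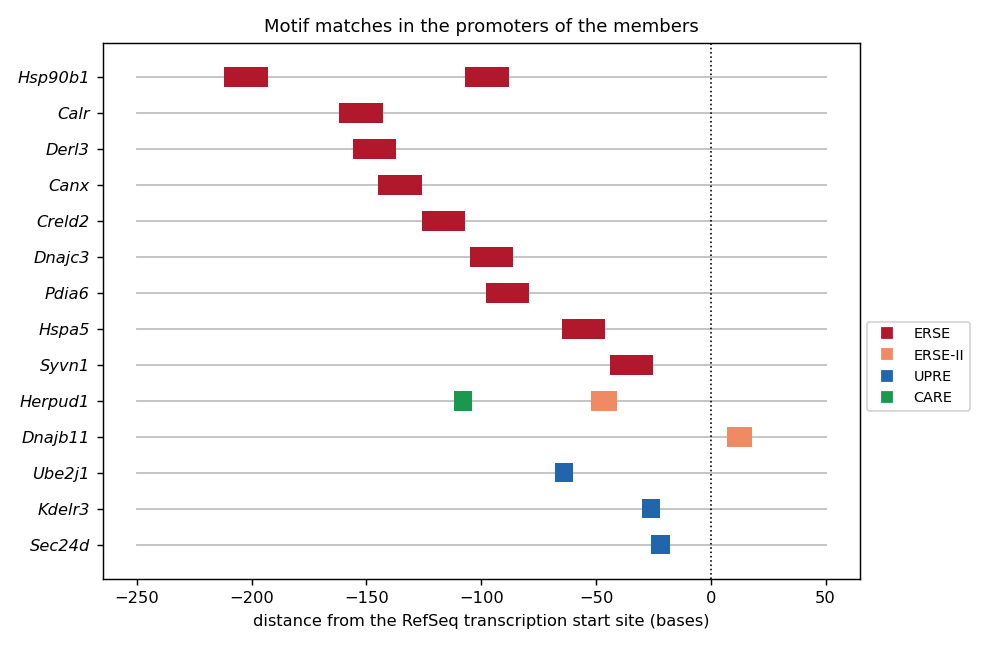
Positions of the matches in the promoters of the 14 members that hold any, as distance in bases from the RefSeq transcription start site (dotted line); each grey line is a window of 250 bases before to 50 after the start, and boxes are coloured by element. Hsp90b1 has 2 matches to ERSE, first bases at -212 and -107, and the match of Dnajb11 lies 7 bases past the start.

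Whole windows are given for members on which the results below turn. Hspa5, Hsp90b1 and Derl3 hold ERSE, Herpud1 holds ERSE-II and CARE, Ube2j1 holds UPRE, and Edem1 and Sdf2l1 hold none of the 4 elements in these windows. Capitals again mark the fixed letters of a match.
Hspa5, chr2:34771840-34772139, plus strand, GRCm38.p6: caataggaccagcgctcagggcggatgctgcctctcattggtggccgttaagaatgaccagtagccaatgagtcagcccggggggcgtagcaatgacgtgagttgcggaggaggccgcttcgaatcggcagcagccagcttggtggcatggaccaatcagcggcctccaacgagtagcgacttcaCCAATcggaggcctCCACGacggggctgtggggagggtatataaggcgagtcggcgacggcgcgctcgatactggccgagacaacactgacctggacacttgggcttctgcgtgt
Hsp90b1, chr10:86705395-86705694, minus strand, GRCm38.p6: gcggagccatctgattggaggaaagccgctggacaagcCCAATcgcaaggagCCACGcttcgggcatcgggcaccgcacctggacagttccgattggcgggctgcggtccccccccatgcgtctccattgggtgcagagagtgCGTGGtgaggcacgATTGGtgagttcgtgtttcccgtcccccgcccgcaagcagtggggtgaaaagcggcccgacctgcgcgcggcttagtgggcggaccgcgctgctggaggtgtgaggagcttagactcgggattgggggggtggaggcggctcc
Derl3, chr10:75893148-75893447, plus strand, GRCm38.p6: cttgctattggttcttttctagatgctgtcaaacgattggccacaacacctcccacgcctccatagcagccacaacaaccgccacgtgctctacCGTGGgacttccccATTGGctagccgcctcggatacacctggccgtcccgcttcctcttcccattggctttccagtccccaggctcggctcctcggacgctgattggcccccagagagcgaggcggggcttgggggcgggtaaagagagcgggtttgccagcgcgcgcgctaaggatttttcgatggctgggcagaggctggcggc
Herpud1, chr8:94386179-94386478, plus strand, GRCm38.p6: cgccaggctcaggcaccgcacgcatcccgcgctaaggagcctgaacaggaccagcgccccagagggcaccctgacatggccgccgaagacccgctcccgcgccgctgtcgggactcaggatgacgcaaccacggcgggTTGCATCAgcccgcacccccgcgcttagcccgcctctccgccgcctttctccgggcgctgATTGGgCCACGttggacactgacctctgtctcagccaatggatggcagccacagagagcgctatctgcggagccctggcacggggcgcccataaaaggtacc
Ube2j1, chr4:33031130-33031429, plus strand, GRCm38.p6: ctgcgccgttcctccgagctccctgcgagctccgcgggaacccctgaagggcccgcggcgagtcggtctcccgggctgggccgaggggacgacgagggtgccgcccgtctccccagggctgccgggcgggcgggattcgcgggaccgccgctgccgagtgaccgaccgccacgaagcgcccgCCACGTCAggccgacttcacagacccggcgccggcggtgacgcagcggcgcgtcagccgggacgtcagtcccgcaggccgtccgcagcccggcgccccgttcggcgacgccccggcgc
Edem1, chr6:108828391-108828690, plus strand, GRCm38.p6: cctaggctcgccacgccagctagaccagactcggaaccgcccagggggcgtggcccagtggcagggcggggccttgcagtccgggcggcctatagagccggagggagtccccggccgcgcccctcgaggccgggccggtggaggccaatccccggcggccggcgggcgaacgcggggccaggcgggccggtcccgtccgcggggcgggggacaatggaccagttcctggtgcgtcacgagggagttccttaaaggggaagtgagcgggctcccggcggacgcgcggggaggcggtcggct
Sdf2l1, chr16:17132334-17132633, minus strand, GRCm38.p6: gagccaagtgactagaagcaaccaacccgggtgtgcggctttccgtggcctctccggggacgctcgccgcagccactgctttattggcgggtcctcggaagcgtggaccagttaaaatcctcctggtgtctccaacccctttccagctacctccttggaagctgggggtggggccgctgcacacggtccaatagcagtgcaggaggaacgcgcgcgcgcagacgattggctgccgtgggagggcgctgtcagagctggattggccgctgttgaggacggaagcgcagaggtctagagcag
Of the 11 members with ERSE or ERSE-II (33.3%, against 0.181% of all genes), 9 rose under HDM in mice labelled knockout, where 26.2% of all tested genes rose, and 7 in wild type, where 13.6% did. The 2 that passed in neither were Dnajc3 and Herpud1. Of the 19 members whose promoter held none of the 4 elements, 14 rose in mice labelled knockout, with 2 lower, and 12 rose in wild type. Of the 3 members with UPRE, Ube2j1 rose under both labels, Kdelr3 passed in mice labelled knockout and not in wild type, and Sec24d passed in neither. A match is a run of letters in this window and was not tested as a binding site.

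HDM against saline was the first comparison, made within each genotype label. In mice labelled knockout, 30 of the 40 members rose and 2 fell under HDM by edgeR's quasi-likelihood test at an adjusted p under 0.05, whereas 26.2% of all tested genes rose and 25.7% fell. In wild type, 24 rose and 1 fell, against 13.6% and 16.5% of all tested genes. The median log2 fold change of the members was 0.46 in mice labelled knockout, beside 0.02 over all tested genes, and 0.30 in wild type, beside -0.02. In these whole lungs, a change in the number of cells of a type and a change in RNA per cell cannot be told apart, for rises or falls. The same 24 members rose in both comparisons, which share no library: 60% of the members, against 12.1% of all tested genes. Because the members were chosen with earlier results of these data known, their excess over all tested genes is a description and not a test. Calr, Canx, Edem3, Sec61a1, Ssr1 and Kdelr3 rose in mice labelled knockout without passing in wild type, and no member rose in wild type alone. Of the falls, those of Pdia5 and Ddit3 passed only in mice labelled knockout, and that of Atf6 only in wild type. The log2 fold change was larger in mice labelled knockout for 30 members (75.0%, against 54.1% of all tested genes), although only 2 of these differences passed the interaction test given below. All 5 libraries of each HDM group lay above all 5 of the matching saline group for 31 members in mice labelled knockout (22.1% of all tested genes) and 17 in wild type (5.93%). Pdia5 alone lay wholly below, in mice labelled knockout, as 21.8% of all tested genes did. Without the 5 adipose-rich libraries the wild-type calls of Hyou1, Pdia3, Derl1, Derl2, Ube2j1, Sec61b and Spcs2 were lost (adjusted p = 0.0603 to 0.153), and all of these but Derl2 were also lost in the fit on the 10 wild-type libraries alone (0.0505 to 0.124). The ribosomal transcript Rn45s took 1.82 to 2.98% of counts in KO_HDM, 1.21 to 2.26% in KO_saline, 2.72 to 6.08% in WT_HDM and 1.47 to 3.47% in WT_saline; with Rn45s left out of the totals, 30 members rose in mice labelled knockout and 27 in wild type.

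**Figure D2:**
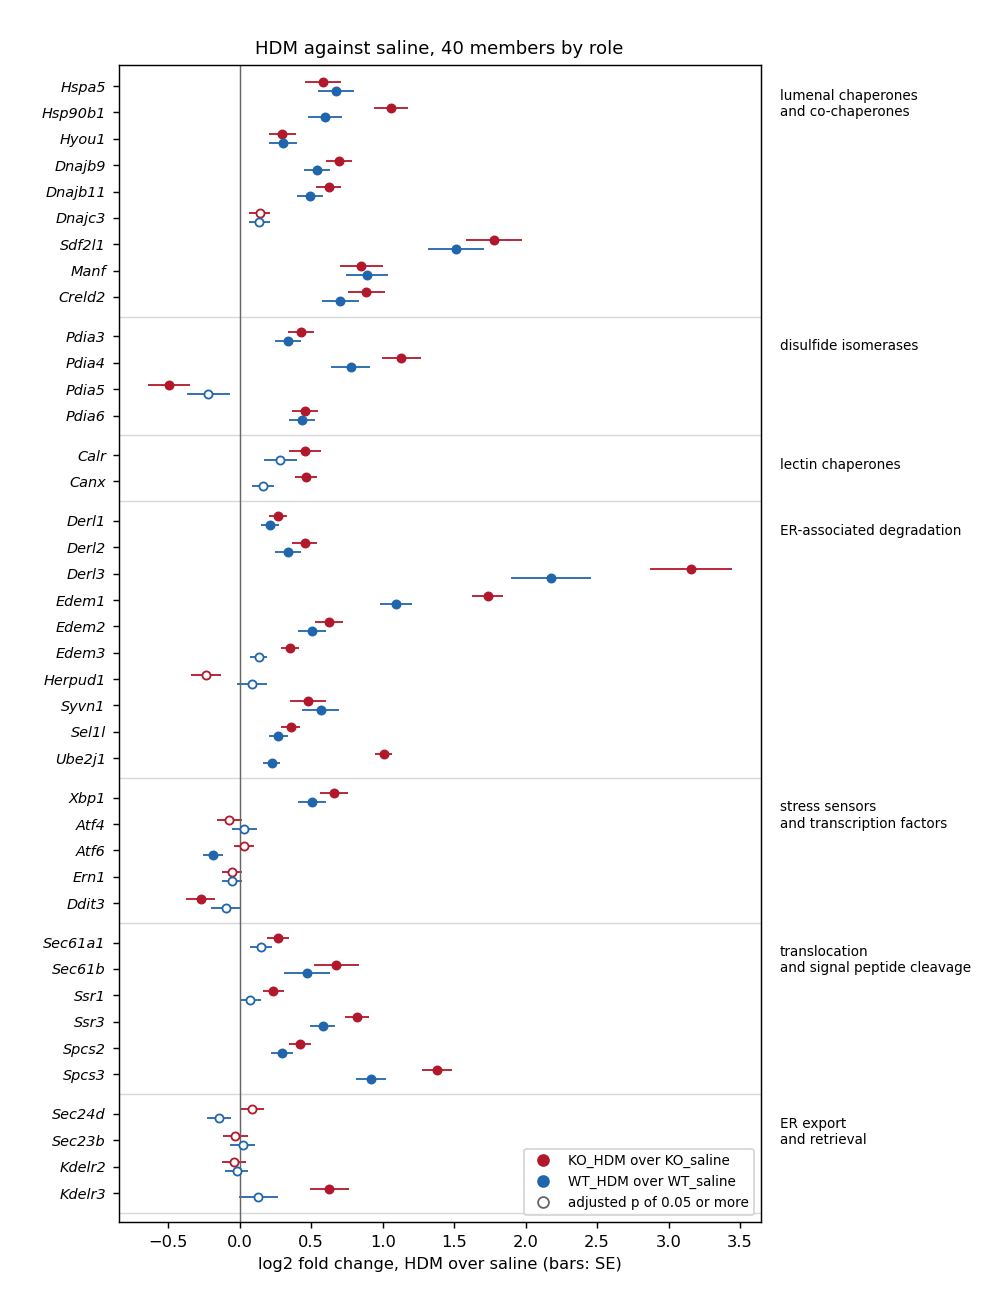
Log2 fold change of HDM over saline for the 40 members, grouped by role, in mice labelled knockout (KO, red) and wild type (WT, blue); bars are standard errors and filled points have an adjusted p under 0.05. Derl3 lies farthest to the right at 3.16 and 2.18, and the sensors apart from Xbp1 lie close to 0.

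Chaperones of the ER lumen rose in 8 of 9 cases under both labels, against 26.2% of all tested genes in mice labelled knockout and 13.6% in wild type. The largest change was that of Sdf2l1, which works with J-domain proteins to keep BiP substrates soluble. Sdf2l1 had 48.8, 36.00, 33.6, 40.1 and 43.1 CPM in KO_HDM libraries 1 to 5, 10.7, 11.7, 11.4, 12.2 and 12.7 CPM in KO_saline, 41.4, 42.3, 31.9, 30.7 and 22.03 CPM in WT_HDM and 7.93, 8.45, 12.2, 18.1 and 12.2 CPM in WT_saline. Both HDM groups lay above both saline groups without overlap, and WT_HDM 5 was the lowest HDM library. Its log2 fold change was 1.78 ± 0.20 (SE; adjusted p = 8.14e-07) in mice labelled knockout and 1.51 ± 0.20 (1.93e-05) in wild type.

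Hsp90b1, the ER member of the HSP90 family also called GRP94, had the next largest change in mice labelled knockout. In the order of replicates 1 to 5, Hsp90b1 counted 2042, 1203, 1367, 1563 and 1595 CPM in KO_HDM, 713, 695, 784, 777 and 765 CPM in KO_saline, 1307, 1232, 1173, 1162 and 925 CPM in WT_HDM and 753, 719, 795, 758 and 809 CPM in WT_saline. KO_HDM 1 stood highest, and each HDM group was clear of its saline group. The log2 fold change was 1.06 ± 0.12 (adjusted p = 1.05e-06) in mice labelled knockout and 0.60 ± 0.12 (0.00107) in wild type. Hspa5, which encodes BiP, the HSP70 chaperone that also holds the sensors inactive, rose by 0.58 ± 0.13 and 0.67 ± 0.13 on the log2 scale in mice labelled knockout and in wild type. Manf, a secreted protein that binds BiP, rose by 0.85 and 0.89, and Creld2, an ER protein induced by stress, by 0.89 and 0.70. The BiP co-chaperones Dnajb9 (0.69 and 0.54) and Dnajb11 (0.62 and 0.49) rose as well, while another co-chaperone, Dnajc3, gave 0.14 under both labels (adjusted p = 0.111 and 0.158). Hyou1, an exchange factor for BiP, rose by 0.30 under both labels. Its call was lost in mice labelled knockout without KO_HDM 1 or KO_HDM 4 (adjusted p = 0.0916 and 0.0691), and in wild type without WT_saline 1 or WT_saline 2 (0.0633 and 0.0774).

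Disulfide isomerases, which form and rearrange disulfide bonds in the ER, did not all move the same way. Pdia4 rose most. Levels of Pdia4 were 389, 270.0, 295, 340.5 and 367 CPM in KO_HDM 1 to 5, 137, 145, 169.6, 149 and 158 CPM in KO_saline, 287, 326, 239.7, 247 and 180.0 CPM in WT_HDM and 119.7, 143, 159, 171 and 153 CPM in WT_saline. Each HDM group lay above its saline group, though WT_HDM 5 came near to the highest WT_saline library. The log2 fold change was 1.13 ± 0.14 (adjusted p = 2.12e-06) in mice labelled knockout and 0.78 ± 0.14 (0.000362) in wild type. Pdia3, the partner of calnexin and calreticulin, rose by 0.43 and 0.34, and Pdia6 by 0.46 and 0.43.

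Pdia5 was the only isomerase of the 4 to fall. Pdia5 had 9.71, 11.8, 12.5, 10.9 and 10.8 CPM in KO_HDM libraries 1 to 5, 13.3, 13.9, 21.6, 12.7 and 17.2 CPM in KO_saline, 14.4, 11.01, 12.5, 10.6 and 16.2 CPM in WT_HDM and 13.1, 14.5, 17.3, 13.3 and 17.1 CPM in WT_saline. In mice labelled knockout the HDM libraries lay below the saline libraries without overlap, and in wild type the groups overlapped. The log2 fold change was -0.50 ± 0.15 (adjusted p = 0.00865; 0.0583 without KO_saline 3) in mice labelled knockout and -0.22 ± 0.15 (0.279) in wild type.

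Calnexin and calreticulin are the lectin chaperones that hold glycoproteins until they are folded. In the order of replicates 1 to 5, Canx counted 597, 678, 742, 724 and 639 CPM in KO_HDM, 483, 461, 514, 495 and 496 CPM in KO_saline, 613, 539.6, 508, 495 and 562 CPM in WT_HDM and 478, 466, 489, 471 and 522 CPM in WT_saline. Levels of Calr were 653, 703, 665, 726 and 634 CPM in KO_HDM 1 to 5, 457, 477, 536, 493 and 501 CPM in KO_saline, 716, 652, 551, 541 and 490.2 CPM in WT_HDM and 369, 441, 511, 579.5 and 522 CPM in WT_saline. For both genes every KO_HDM library was above every KO_saline library, and the wild-type groups overlapped. Canx rose by 0.47 ± 0.08 on the log2 scale (adjusted p = 6.54e-05) and Calr by 0.46 ± 0.11 (0.00257) in mice labelled knockout, while the wild-type values were 0.16 ± 0.08 (0.118) and 0.28 ± 0.11 (0.0675). Both passed in wild type with DESeq2, at 0.0440 for Canx and 0.0403 for Calr.

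Members of ER-associated degradation rose in 9 of 10 cases in mice labelled knockout and in 8 in wild type, against 26.2% and 13.6% of all tested genes. Of 18 degradation genes outside the members, only 2 and 1 rose, as given below. Derl3 had the largest log2 fold change of the 40 members under both labels. Derl3 encodes a derlin, a membrane protein of the channel through which misfolded proteins leave the ER. Derl3 had 17.2, 6.43, 6.96, 11.6 and 15.2 CPM in KO_HDM libraries 1 to 5, 1.01, 1.17, 1.19, 1.39 and 1.64 CPM in KO_saline, 5.38, 7.61, 4.74, 7.91 and 3.56 CPM in WT_HDM and 1.33, 1.04, 1.17, 1.56 and 1.32 CPM in WT_saline. The 10 HDM libraries were all above the 10 saline libraries, and KO_HDM 1 and KO_HDM 5 were the highest. The log2 fold change was 3.16 ± 0.28 (adjusted p = 7.88e-08), or 8.92-fold, in mice labelled knockout and 2.18 ± 0.28 (1.74e-05), or 4.53-fold, in wild type. The related Derl1 (0.27 and 0.21) and Derl2 (0.45 and 0.34) changed far less, and the wild-type call of Derl1 was lost without WT_HDM 4 (adjusted p = 0.0534).

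Edem1 encodes a mannosidase-like protein that marks misfolded glycoproteins for degradation. In the order of replicates 1 to 5, Edem1 counted 404, 267, 297, 369 and 360.2 CPM in KO_HDM, 98.8, 95.5, 96.1, 114 and 106 CPM in KO_saline, 238, 239.9, 252, 249.9 and 175 CPM in WT_HDM and 113, 107, 103, 115 and 103 CPM in WT_saline. All 10 HDM libraries were above all 10 saline libraries, with WT_HDM 5 well below the other 4 of its group. Edem1 rose by 1.73 ± 0.11 (adjusted p = 4.42e-09), or 3.33-fold, in mice labelled knockout and by 1.09 ± 0.11 (1.24e-06), or 2.13-fold, in wild type. Its relatives Edem2 (0.62 and 0.50) and Edem3 (0.35 in mice labelled knockout, and 0.13 in wild type with adjusted p = 0.117) changed less.

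Ube2j1, the ubiquitin-conjugating enzyme anchored in the ER membrane, had the smallest p-value of the members between the labels under HDM. Levels of Ube2j1 were 116, 105, 109.8, 121 and 118 CPM in KO_HDM 1 to 5, 55.05, 56.1, 56.9, 58.1 and 57.8 CPM in KO_saline, 74.7, 69.5, 65.1, 70.95 and 67.8 CPM in WT_HDM and 64.03, 54.3, 57.6, 62.5 and 59.9 CPM in WT_saline. The KO_HDM libraries stood far above all 15 others, and the WT_HDM libraries lay just above the WT_saline libraries. The log2 fold change was 1.01 ± 0.06 (adjusted p = 1.7e-09) in mice labelled knockout and 0.22 ± 0.06 (0.0073) in wild type. The ubiquitin ligase Syvn1, also called HRD1, rose by 0.48 and 0.57 and its adaptor Sel1l by 0.36 and 0.27. Herpud1, a scaffold of the same ligase, was the exception in this class, with -0.24 ± 0.11 (adjusted p = 0.0686) and 0.08 ± 0.11 (0.592).

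**Figure D3:**
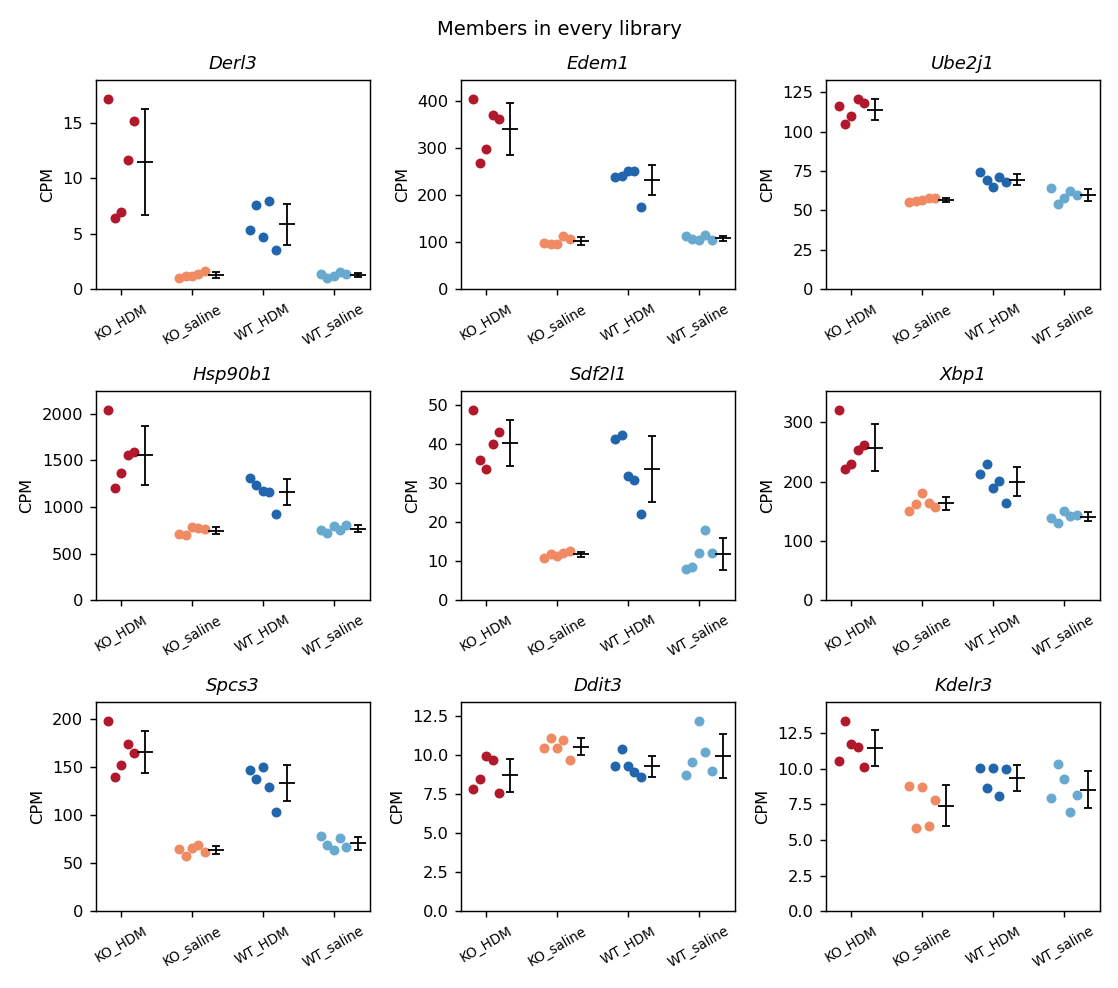
CPM of 9 members in every library, with the groups KO_HDM, KO_saline, WT_HDM and WT_saline from left to right; points are libraries 1 to 5 and the bars beside them the mean ± SD (n = 5). Derl3, Edem1, Ube2j1, Hsp90b1, Sdf2l1 and Spcs3 separate the 10 HDM libraries from the 10 saline libraries, Ube2j1 only narrowly in wild type. Ube2j1 stands out in KO_HDM, and Ddit3 overlaps between all groups.

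Among the sensors and transcription factors, Xbp1 was the only member of 5 to rise, where 26.2% and 13.6% of all tested genes rose. Its messenger RNA is spliced by IRE1 into the active form, and counts per gene do not separate the spliced form from the unspliced one. Xbp1 had 321, 222, 230.2, 253 and 262 CPM in KO_HDM libraries 1 to 5, 150.3, 163, 181, 164 and 158 CPM in KO_saline, 214, 229, 190.0, 201 and 164 CPM in WT_HDM and 139, 130.3, 149.6, 142 and 143 CPM in WT_saline. Each HDM group lay above its saline group, and the KO_saline libraries lay just above the WT_saline libraries, without an edgeR call between them (adjusted p = 0.303). Xbp1 rose by 0.66 ± 0.10 (adjusted p = 1.91e-05) in mice labelled knockout and by 0.50 ± 0.10 (0.000839) in wild type. Ern1, which encodes IRE1, gave -0.05 and -0.06 (adjusted p = 0.554 and 0.591), and Atf4, the factor translated when PERK is active, gave -0.07 and 0.03 (0.496 and 0.824). Translation and cleavage of these proteins were not measured.

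Ddit3 encodes CHOP, a factor linked to death of stressed cells. In the order of replicates 1 to 5, Ddit3 counted 7.85, 8.48, 9.92, 9.70 and 7.55 CPM in KO_HDM, 10.4, 11.1, 10.4, 10.96 and 9.71 CPM in KO_saline, 9.27, 10.4, 9.32, 8.89 and 8.57 CPM in WT_HDM and 8.69, 9.59, 12.2, 10.2 and 9.0 CPM in WT_saline. The groups overlapped, with the KO_HDM libraries mostly lower. Ddit3 fell by 0.27 ± 0.10 in mice labelled knockout (adjusted p = 0.0305), a call that was lost in 12 of the 20 fits that left out 1 library (adjusted p = 0.0567 to 0.123), and in wild type the log2 fold change was -0.10 ± 0.10 (0.504). Atf6, the sensor that is cut in the Golgi to release a transcription factor, fell by 0.19 ± 0.07 in wild type (adjusted p = 0.0499), a call lost in 18 of the 20 such fits (0.0559 to 0.236), and gave 0.03 in mice labelled knockout.

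All 6 members of the translocation channel and signal peptidase rose in mice labelled knockout, and 4 rose in wild type, against 26.2% and 13.6% of all tested genes. Spcs3, a subunit of the signal peptidase that cuts signal peptides from new proteins, changed most. Levels of Spcs3 were 198, 140.1, 153, 174 and 165 CPM in KO_HDM 1 to 5, 64.7, 57.8, 66.3, 69.1 and 61.4 CPM in KO_saline, 148, 138, 149.9, 129 and 103 CPM in WT_HDM and 78.6, 68.6, 63.4, 76.1 and 66.7 CPM in WT_saline. The HDM libraries were all above the saline libraries. Spcs3 rose by 1.38 ± 0.10 (adjusted p = 1.34e-08), or 2.60-fold, in mice labelled knockout and by 0.92 ± 0.10 (4.11e-06), or 1.89-fold, in wild type. Spcs2, another subunit, rose by 0.42 and 0.29.

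Ssr3 belongs to the translocon-associated TRAP complex. Ssr3 had 387, 340.3, 377, 384 and 368 CPM in KO_HDM libraries 1 to 5, 205, 194, 217, 215 and 218 CPM in KO_saline, 344, 327, 373, 309 and 298 CPM in WT_HDM and 258, 234, 203, 185 and 225 CPM in WT_saline. Here too all HDM libraries were above all saline libraries. Ssr3 rose by 0.82 ± 0.08 (adjusted p = 3.7e-07) and 0.58 ± 0.08 (6.85e-05), while Ssr1 of the same complex rose by 0.24 in mice labelled knockout (adjusted p = 0.0133; 0.0744 without KO_HDM 4) and gave 0.07 in wild type (0.496). The channel subunit Sec61b rose by 0.68 and 0.47, the wild-type call being lost without WT_HDM 1, WT_HDM 2, WT_saline 1, WT_saline 2 or WT_saline 3 (adjusted p = 0.0574 to 0.0802). The pore subunit Sec61a1 rose by 0.27 in mice labelled knockout and gave 0.15 in wild type (adjusted p = 0.141).

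Members that carry proteins out of the ER and back changed least. The COPII coat subunits Sec24d (0.09 and -0.15; adjusted p = 0.389 and 0.188) and Sec23b (-0.03 and 0.02; 0.785 and 0.887) and the retrieval receptor Kdelr2 (-0.04 and -0.02; 0.702 and 0.871) passed in neither comparison. Kdelr3, the receptor that returns ER proteins from the Golgi, was the exception. In the order of replicates 1 to 5, Kdelr3 counted 10.6, 13.3, 11.7, 11.5 and 10.1 CPM in KO_HDM, 8.76, 5.82, 8.71, 6.0 and 7.80 CPM in KO_saline, 10.1, 8.64, 10.02, 8.07 and 9.95 CPM in WT_HDM and 7.93, 10.3, 9.30, 6.99 and 8.15 CPM in WT_saline. The KO_HDM libraries were all above the KO_saline libraries, and the wild-type groups overlapped. Kdelr3 rose by 0.63 ± 0.13 (adjusted p = 0.000639) in mice labelled knockout and gave 0.13 ± 0.13 (0.496) in wild type.

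The libraries of a group differed in a way that many members shared. Within KO_HDM, library 1 was the highest for 20 of the 40 members and library 2 the lowest for 23. Within WT_HDM, library 2 was the highest for 17 and library 5 the lowest for 22. Within KO_saline, library 3 was the highest for 21 and never the lowest.

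Markers of several cell types also changed under HDM, in both directions. Beside their counts stand all tested genes, of which 26.2% rose and 25.7% fell in mice labelled knockout. In wild type 13.6% rose and 16.5% fell. The 12 plasma cell markers summed to 1273 to 2317 CPM in KO_HDM (median 1639), 436 to 523 in KO_saline (505), 664 to 1175 in WT_HDM (973) and 342 to 613 in WT_saline (405). Of these markers 8 rose and 1 fell in mice labelled knockout and 6 rose in wild type. Igj, the joining chain of secreted antibodies, had 1389, 616, 653, 859 and 1112 CPM in KO_HDM 1 to 5, and 326, 470.5, 139, 384 and 212 CPM in WT_HDM 1 to 5; it was never at 0 and reached at most 41.1 CPM in KO_saline and 50.6 CPM in WT_saline. The 5 KO_HDM libraries have the same order by Igj as by Derl3. In WT_HDM the orders were close: libraries 2 and 4 were highest and libraries 3 and 5 lowest by both genes, each pair in swapped order. Among the other members given in every library, Hsp90b1, Pdia4, Xbp1 and Edem2 also had the KO_HDM order of Igj, and the rest did not. That order was thus not particular to Derl3. In WT_HDM no other member was set against Igj here. The 14 goblet cell markers summed to 3272 to 10007 CPM in KO_HDM (median 3901), 99.8 to 453 in KO_saline (267), 4163 to 10729.9 in WT_HDM (5519) and 209 to 1548 in WT_saline (458), and 14 and 13 of them rose. Macrophage markers summed to 6373 to 10661 CPM in KO_HDM, 537 to 1008 in KO_saline, 8018 to 16754 in WT_HDM and 695 to 879.6 in WT_saline, with 10 of 11 higher and 1 lower under both labels. Of 10 cell cycle genes, 10 and 9 rose, while 5 of 5 club cell markers and 6 of 6 endothelial markers fell under both labels. Alveolar type 2 cell markers rose in 1 and fell in 3 of 10 cases in mice labelled knockout and rose in 2 in wild type. These counts lay near or below the shares of all tested genes. Adipose markers were called in neither comparison, liver markers rose in 13 of 13 cases in mice labelled knockout, and 4 of 5 tested muscle markers rose in wild type, where WT_HDM 2 held most of them. The part of these cell types in the members' changes was not tested.

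The next comparison was that of the labels under each treatment. Under saline no member passed in either direction with edgeR, DESeq2 or limma voom, 3 of the 40 had an unadjusted p under 0.05 (7.5%, against 15.7% of all tested genes), and by the adjusted p 0.593% of all tested genes were higher and 0.315% lower. Xbp1 was the 1 member whose KO_saline libraries were all above the WT_saline libraries, as for 1.91% of all tested genes. Under HDM, 9 of the 40 members were higher in mice labelled knockout than in wild type and none was lower, whereas 4.79% of all tested genes were higher and 1.88% lower. The median log2 difference was 0.18 for the members and -0.01 for all tested genes, and 17 members had an unadjusted p under 0.05 (42.5%, against 21.2% of all tested genes). With DESeq2, 13 members were higher and none lower. The KO_HDM libraries lay wholly above the WT_HDM libraries for 7 members, against 4.8% of all tested genes. The 9 were Ube2j1, Edem1, Canx, Sec24d, Xbp1, Derl3, Edem2, Hsp90b1 and Dnajb9, and 4 of them belong to ER-associated degradation. Rn45s took 1.82 to 2.98% of counts in KO_HDM and 2.72 to 6.08% in WT_HDM, and 8 members were higher with it left out of the totals, Dnajb9 losing its call (adjusted p = 0.0563).

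**Figure D4:**
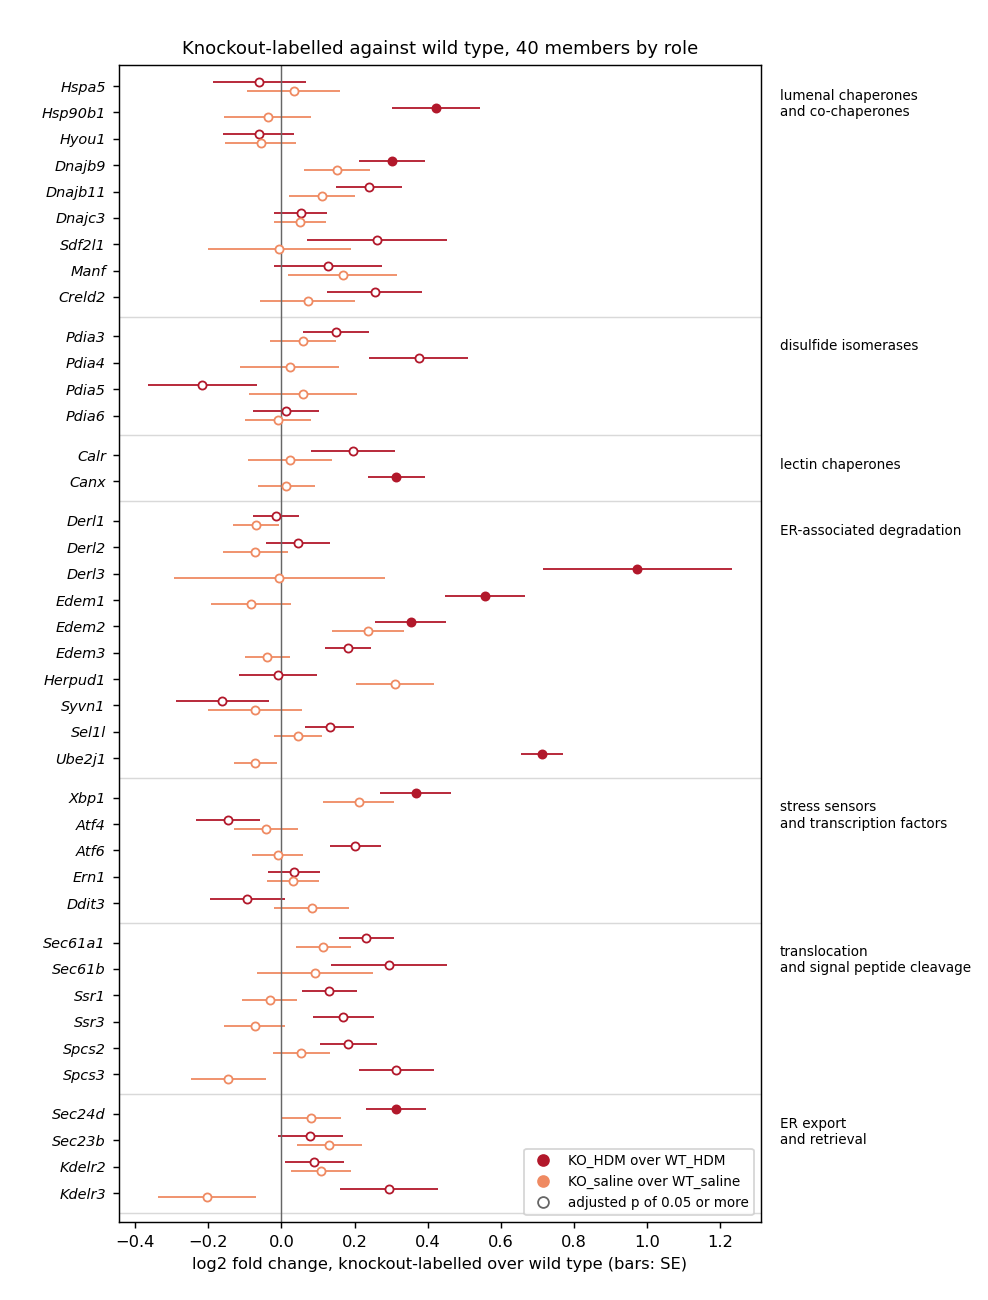
Log2 fold change of mice labelled knockout over wild type for the 40 members, under HDM (red) and under saline (orange); bars are standard errors and filled points have an adjusted p under 0.05. Ube2j1 at 0.71, Edem1 at 0.56 and Derl3 at 0.97 lead under HDM, and every saline point is open.

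Ube2j1 differed by 0.71 ± 0.06 on the log2 scale under HDM (adjusted p = 3.61e-07), or 1.64-fold, against -0.07 ± 0.06 under saline (0.555). As given above, its 5 KO_HDM libraries did not overlap with the WT_HDM libraries. It was the only one of the 9 to pass under every alternative scaling, filter, tool and set of libraries tried at the same threshold. Edem1 differed by 0.56 ± 0.11 (adjusted p = 0.00379), or 1.47-fold, again without overlap, and lost its call only in the fit on the 10 HDM libraries alone (0.0506).

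Sec24d, a cargo-binding COPII subunit, differed by 0.31 ± 0.08 (adjusted p = 0.0244). Levels of Sec24d were 61.9, 66.02, 70.5, 76.5 and 67.2 CPM in KO_HDM 1 to 5, 65.2, 59.7, 70.04, 61.8 and 65.4 CPM in KO_saline, 58.9, 57.1, 49.3, 49.4 and 60.3 CPM in WT_HDM and 51.7, 67.5, 61.9, 59.3 and 63.99 CPM in WT_saline. The KO_HDM libraries were all above the WT_HDM libraries, and each overlapped with its saline group. Its call was lost without KO_HDM 3, KO_HDM 4, WT_HDM 3 or WT_HDM 4 (adjusted p = 0.0611 to 0.116).

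Edem2 differed by 0.35 ± 0.10 (adjusted p = 0.0339). Edem2 had 71.8, 56.5, 58.02, 68.1 and 69.1 CPM in KO_HDM libraries 1 to 5, 36.4, 42.04, 48.8, 41.2 and 41.8 CPM in KO_saline, 51.5, 55.5, 49.7, 47.9 and 48.6 CPM in WT_HDM and 28.2, 36.2, 34.6, 41.3 and 38.2 CPM in WT_saline. The KO_HDM libraries were above the WT_HDM libraries, the nearest being KO_HDM 2 and WT_HDM 2. The call was lost in 12 of the 20 fits that left out 1 library (adjusted p = 0.0507 to 0.125).

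Canx, Xbp1, Derl3, Hsp90b1 and Dnajb9 overlapped between the HDM groups. Canx differed by 0.31 ± 0.08 (adjusted p = 0.0185) and lost its call without KO_HDM 3, KO_HDM 4 or WT_HDM 4 (0.0596 to 0.0680). Xbp1 differed by 0.37 ± 0.10 (0.0274) and lost it without KO_HDM 1, KO_HDM 4, WT_HDM 3, WT_HDM 4 or WT_HDM 5 (0.0683 to 0.0961). Derl3 differed by 0.97 ± 0.26 (0.0276), a call lost without KO_HDM 1, KO_HDM 4, KO_HDM 5, WT_HDM 1, WT_HDM 3 or WT_HDM 5 (0.0547 to 0.0852). For Hsp90b1 (0.42 ± 0.12; 0.0381) and Dnajb9 (0.30 ± 0.09; 0.0489) the call was lost in 13 and 15 of the 20 fits. The number of members called fell to 2 without KO_HDM 4, to 3 without WT_HDM 3 or WT_HDM 4, to 4 without KO_HDM 1 or without the 5 adipose-rich libraries, and to 5 without KO_HDM 5 or WT_HDM 5. Ube2j1, Edem1, Derl3 and Xbp1 were the 4 called without the adipose-rich libraries, and in the fit on the 10 HDM libraries alone Ube2j1 and Sec24d were called. In the same comparison, plasma cell markers were higher in 3 of 12 cases, macrophage markers in 4 of 11, liver markers in 12 of 13 and alveolar type 2 cell markers in 1 of 10, while 1 of 10 cell cycle genes was higher and 1 lower and 4 of 5 tested muscle markers were lower. No goblet, club, endothelial or adipose marker was called. Of all tested genes, 4.79% were higher and 1.88% lower. The part of these cell types in the difference was not tested. Canx and Xbp1 lie on chromosome 11, as does Alox15, and the other 7 lie elsewhere.

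Whether the response to HDM itself differed between the labels was tested as an interaction. It passed for 2 of the 40 members, both more strongly raised in mice labelled knockout, and for none in the other direction, while 1% of all tested genes were higher and 0.235% lower. DESeq2 and limma voom gave the same counts, and 10 members had an unadjusted p under 0.05 (25%, against 16% of all tested genes). The interaction was 0.78 ± 0.08 (SE) on the log2 scale for Ube2j1 (adjusted p = 8.13e-05) and 0.64 ± 0.15 for Edem1 (0.0439). The call of Edem1 was lost in 16 of the 20 fits that left out 1 library (adjusted p = 0.0515 to 0.142), without the adipose-rich libraries (0.128), with upper-quartile factors (0.0717), without a filter on low counts (0.0741) and without Rn45s (0.0601).

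Beside the 40 members, 131 other genes of the same pathway were followed in 6 lists. Their counts are to be read beside all tested genes. Of these, 26.2% rose and 25.7% fell in mice labelled knockout, and 13.6% rose and 16.5% fell in wild type. Genes of translocation and glycosylation rose in 12 of 26 cases and fell in 3 in mice labelled knockout, and rose in 7 and fell in 1 in wild type. Sec11c, the catalytic partner of Spcs3 in the signal peptidase, rose by 1.52 ± 0.13 and 0.88 ± 0.13, and Tram1, a membrane protein of the channel, by 0.66 and 0.24. Other folding genes rose in 9 and fell in 2 of 25 cases in mice labelled knockout and rose in 4 and fell in 1 in wild type. Their rises in wild type were near the share of all tested genes. The prolyl isomerase Fkbp11 (1.25 and 1.28) and the oxidase now named Ero1b, listed as Ero1lb (1.19 and 0.96), led this list, and the BiP exchange factor Sil1 fell by 0.45 in mice labelled knockout.

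Other degradation genes were called less often than all tested genes: 2 of 18 rose and 1 fell in mice labelled knockout and 1 rose in wild type. Erlec1, a lectin that recognises misfolded glycoproteins, rose by 0.58 and 0.25. Other export and Golgi retrieval genes rose in 8 and fell in 4 of 28 cases in mice labelled knockout and rose in 3 and fell in 3 in wild type, near or below the shares of all genes. The COPII subunit Sec24a rose by 0.84 ± 0.07 and 0.27 ± 0.07 and the cargo receptor Tmed2 by 0.52 and 0.31.

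Of 23 genes of the PERK and ATF4 arm, 12 rose and 6 fell in mice labelled knockout, against 26.2% and 25.7% of all tested genes. In wild type 8 rose and 3 fell, against 13.6% and 16.5%. The falls thus lay near the shares of all tested genes. The cystine transporter Slc7a11 (2.41 ± 0.43 and 2.81 ± 0.44) and the folate enzyme Mthfd2 (1.52 and 0.70) rose. Ppp1r15a, which encodes GADD34, the phosphatase subunit that ends the PERK signal, fell by 1.02 and 0.54, and Trib3 and Asns, further genes known to respond to ATF4, fell by 0.36 and 0.42 in mice labelled knockout. Of 11 tested other sensors and ER-bound factors, 4 rose and 4 fell in mice labelled knockout and 3 rose and 2 fell in wild type. The same shares of all tested genes stand beside these counts. Ern2, the IRE1 form of mucous epithelia, rose by 3.90 ± 0.74 and 2.06 ± 0.64, and Bhlha15, a factor of secretory cells also called MIST1, rose by 2.40 ± 0.22 and 1.34 ± 0.22. Ern2 is also among the goblet cell markers.

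**Figure D5:**
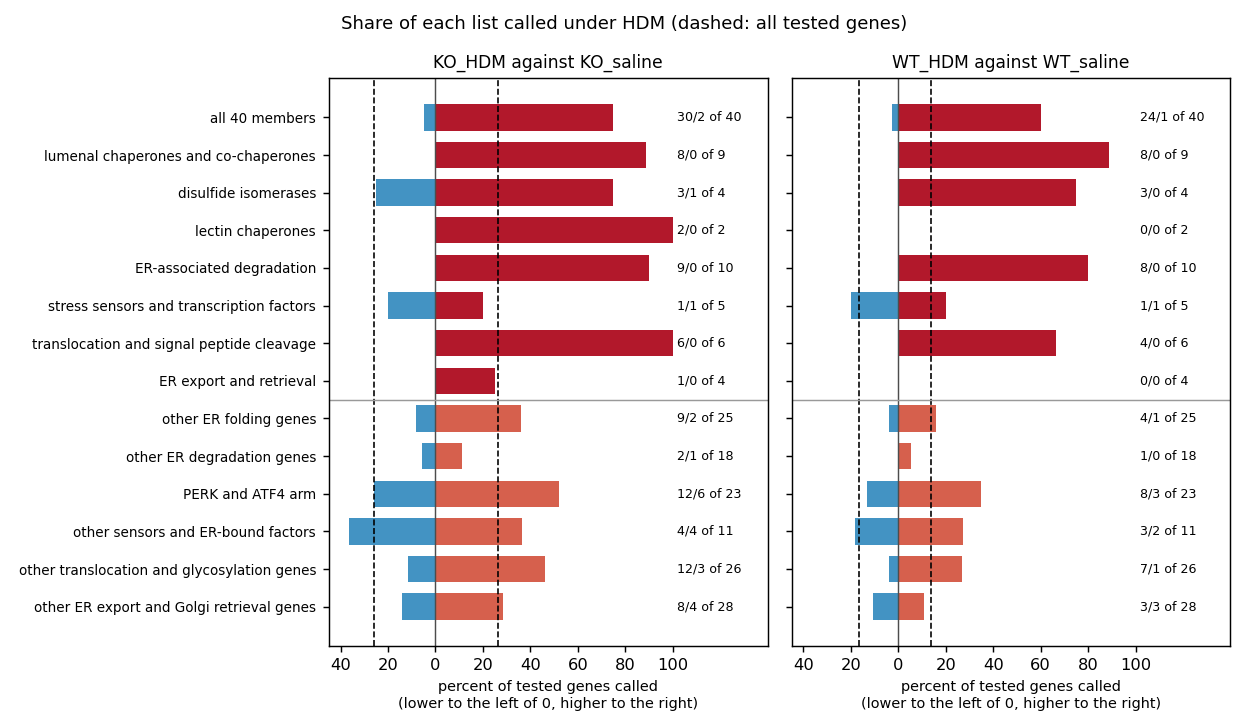
Percent of the tested genes of each list that were higher (right of 0) or lower (left of 0) under HDM, in mice labelled knockout (left panel) and in wild type (right panel); numbers give higher/lower of tested, and dashed lines mark all tested genes, 26.2% and 25.7% on the left and 13.6% and 16.5% on the right. The member classes stand above the horizontal line and the other pathway lists below it.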

How the data were processed

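Whole-lung RNA was sequenced in 20 libraries. Per the labels' protocols, messenger RNA was selected with oligo-dT and libraries kept the strand through dUTP; ribosomal RNA depletion is mentioned too. Reads were aligned with Bowtie2 2.1.0 and quantified with RSEM 1.2.15, per the submitters' processing notes; the build named is human (hg38) although the symbols are mouse, so no coordinates of the table are used. What the authors deposited are expected counts of each gene, not normalized, in which reads matching several genes are shared among them. These counts were rounded to whole numbers (82.3% of values already were).

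In R 4.3.3, edgeR 4.0.16 filtered genes with filterByExpr by group, scaled libraries with TMM factors and fitted a mean per group over all 20 libraries (16 residual degrees of freedom). For 5 comparisons the quasi-likelihood F test in its robust form was used, with p-values adjusted by Benjamini-Hochberg over 16193 genes; a gene with an adjusted p under 0.05 is called. Standard errors are the log2 fold change divided by the root of F. Within a group, log2 CPM of library pairs correlated at 0.942 to 0.991 and no libraries were identical. Alternatives were other scaling factors, filters, thresholds and library sets, DESeq2 1.42.0, limma voom 3.58.1 and a replicate block. The scripts were tested on simulated counts.

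The members, gene lists, marker lists and alternatives were chosen with earlier results of these data known. Values in every library are given for up to 8 members called between labels or in the interaction and for the 2 largest called changes of each role class, 16 members in all; of other lists, up to 4 called genes are named. Older symbols were matched where the table used them. Promoters came from RefSeq; 7 members (Atf6, Derl1, Hyou1, Kdelr2, Manf, Sec61a1 and Spcs3) had no window in the table used. The SD between libraries was larger than the Poisson counting error in 156 of 160 sets of 5 libraries (40 members in 4 groups); the exceptions were Ddit3 in KO_saline and WT_HDM, Derl3 in WT_saline and Ube2j1 in KO_saline. Counting error reached 20.0% of the mean, for Derl3 in WT_saline.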

Additional observations from a re-analysis of the deposited data

Results flagged for a closer look

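Among the 160 sets of 5 libraries (40 members in 4 groups), 4 held a library far from the others by Dixon's test, or 2.5%, while chance flags about 1 in 20. Edem1 was 175 CPM in WT_HDM 5, against 238 to 252 CPM in the other WT_HDM libraries. Sec61b was 56.4 CPM in KO_HDM 1, with the nearest KO_HDM library at 44.5 CPM. Ssr1 was 214.5 CPM in KO_saline 2, below the other KO_saline libraries. Derl2 was 51.2 CPM in WT_saline 1, with the nearest WT_saline library at 39.4 CPM.

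The response to HDM differed between the genotype labels for 2 members by the interaction test of edgeR. The difference on the log2 scale, mice labelled knockout minus wild type, was 0.78 for Ube2j1 (adjusted p = 8.13e-05) and 0.64 for Edem1 (adjusted p = 0.0439). No explanation was tested.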

How the results depend on the processing

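No member with a call reversed its direction under any alternative, and no scaling moved the median log2 fold change of all genes by 0.1 or more. Called in every alternative at the same threshold were 28 of the 30 members that rose in mice labelled knockout, 17 of the 24 in wild type, 1 of the 9 between labels under HDM and 1 of the 2 in the interaction, both times Ube2j1, and none of the 3 that fell. Counts that rose stayed within 1.5 times for HDM in either label, except that a change of at least 2-fold was met by 7 members in mice labelled knockout and 3 in wild type. Leaving out 1 library gave 28 to 31 and 22 to 26.

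Members that fell under HDM in mice labelled knockout numbered 1 at an adjusted p under 0.01 or without the 5 adipose-rich libraries, 0 at 2-fold, and 0 to 3 with 1 library left out. The single fall in wild type, that of Atf6, was not called (0) with RLE or upper-quartile factors, without a filter, with the 10 compared libraries alone, without Rn45s, without the adipose-rich libraries or at either stricter threshold, and leaving out 1 library gave 0 to 1. Between labels under HDM, the 9 became 5 with upper-quartile factors, 2 with the 10 libraries alone or at an adjusted p under 0.01, 0 at 2-fold and 4 without the adipose-rich libraries, and 2 to 10 with 1 library left out. The 2 of the interaction became 1 with upper-quartile factors, without a filter, without Rn45s, without the adipose-rich libraries or at an adjusted p under 0.01, 0 at 2-fold, and 1 to 2 with 1 library left out. Under saline, leaving out 1 library gave 0 to 0. Apart from the smaller sets of libraries and the stricter thresholds, the cause of these changes was not tested.

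The labels do not say whether equal replicate numbers pair libraries. Of 30 same-numbered pairs, 17 had deviations correlated over 0.1 (range -0.46 to 0.51), and 7 of 20 libraries correlated best with their own number. No level by chance was computed for these counts, so they cannot decide whether libraries were paired by number. With the replicate block, 30 members rose and 2 fell in mice labelled knockout, 23 rose and 1 fell in wild type, 7 were higher between labels under HDM, of which 6 were among the 9, and 2 passed the interaction.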
